A study of Schmidtea mediterranea with 152 samples.

Results

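The blastema non-pole muscle cells are single cells of the planarian Schmidtea mediterranea taken from the new tissue at a tail wound, which held collagen transcript but no wnt1 transcript in a PCR screen of their cDNA. They were the libraries labelled regenerating_non-pole, 75 in number beside 77 cells with other labels in the series. Cells with 50000 or more reads on the transcripts used were kept, which left 69 of the 75. The 6 libraries left out held 156 to 46337 reads, and the shallowest kept cells held 51801, 53961 and 57817. The animals were starved asexual worms of the strain CIW4, amputated to leave regenerating trunks. The midline of the trunks' posterior blastema was dissected 72 hours later, dissociated and sorted for non-dividing 2N cells, 1 cell to a well. The labels name no gene inhibition for these animals. The labels give no animal or plate for a cell, so the 69 cells were treated as 1 sample, no p-value was computed, and every spread below is a spread between cells. The study's methods state fewer blastema non-pole cells than the count table holds, and the sources used here do not say which libraries those were.

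Planarian muscle does more than contract. Its cells make the collagens and other matrix proteins of the body wall, in the role that fibroblasts have in vertebrates, and they express position control genes, whose regional expression tells other tissues where along the body they lie. wnt1-expressing muscle cells at the tail tip form the posterior pole, and the cells described here are muscle cells from the same midline tissue that lacked wnt1. Body wall muscle is built of fibres that run along, around and obliquely across the body, and myoD is the transcription factor known in planarians for longitudinal fibres.

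The primers of the screen are shown because the screen decided which sorted cells carry the label. The last 5 bases, where the polymerase starts to extend, are in capitals, and each primer is written 5′ to 3′ as the study designed it. The pair for wnt1 had to give no product and the pair for collagen had to give one. Which of the collagen transcripts below the collagen pair matches was not analysed here.
wnt1 forward: gtgacattatgctcaaaggaTTTCC
wnt1 reverse: acggacagtgtgataacttAAACG
collagen forward: ggtgtacttggagacgttgGTTTA
collagen reverse: ggtctaccttctcttcctGGAAC

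The kept cells held a median of 218403 reads on the transcripts used, from 51801 to 1296478. Levels are reads scaled to a total of 1000000 on these transcripts (CPM), and because transcript lengths were not used, a high CPM means many reads and not more molecules than another gene. After each cell was thinned to 50000 reads, so that shallow and deep cells had the same chance of a read, a cell held 860 to 4243 transcripts with a read, with a median of 3240. Of 2346 pairs of libraries, the 5 most alike had correlations of log2(CPM + 1) from 0.58 to 0.61 and a chi-square of 39.1 to 58.6 per degree of freedom, so none of these 5 pairs agreed within sampling noise. In 19 of the 69 libraries mitochondrial reads took 0.399% to 3.59% of all counted reads, and in the other 50 they took 13.4% to 52.7%. The libraries with the low mitochondrial share held fewer reads on the transcripts used, with a median of 82118 against 289472. Their counted reads were not fewer, with a median of 1049090 against 894158. Contig dd_7, a row outside the transcripts used, took a median of 59.9% of their counted reads against 28.8%. Contig dd_4, another such row, took 30.6% against 16.3%. For the main sums and some genes the values of both sets are given, with the cause of a difference not tested.

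The muscle label was first set beside the collagen transcripts COL1A2 dd_840 and COL24A1 dd_701, where a name is that of the best human or planarian match and the number is that of the contig in the transcriptome. COL1A2 dd_840 ranged from 0 to 10885 CPM with a median of 3396, and it had a read in 62 of 69 thinned cells (89.9%, exact Clopper-Pearson 95% interval 80.2 to 95.8, counting error only). COL24A1 dd_701 ranged from 0 to 15695 CPM with a median of 5649, and it had a read in 63 cells (91.3%, interval 82.03 to 96.7). Both markers were read together in 61 cells. Since the screen chose cells by a collagen, these values describe the chosen cells and are no independent check of the label.

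In 6 cells the label and the transcripts went apart. Their 13 collagens summed to 62.7 to 1866 CPM, against 9857 to 138079 CPM in the other 63 cells, and no cell lay between. In 5 of the 6 (cells 12, 23, 36, 40 and 65), agat-1, a gene known from planarian epidermal progenitors, lay between 6870 and 11240.9 CPM, against 74.1 CPM at most in the other 64 cells. COL1A2 dd_840 was at 0 in 4 of these 5 cells and at 3.30 CPM in the remaining one. COL24A1 dd_701 was at 0 in 3 of them, and at 1.63 and 13.7 CPM in the others. Contig dd_899, which has no name in the sources used here, took 16583 to 38677 CPM in the 5 cells and 239 CPM at most elsewhere. Contigs dd_146 and dd_379 followed the same pattern, with at least 7891 and 7502 CPM in the 5 cells and at most 47.1 and 11.8 CPM in the rest. vim, a gene the study places in the epidermis, had 1 cell with a read among all 69, and not among these 5. Cells 12 and 23 belonged to the libraries of low mitochondrial share. These 5 cells go against the muscle label and are called agat-1-rich cells here.

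The sixth cell low in collagen, cell 43, was of another kind. It had no agat-1 read, and its collagens summed to 1866 CPM and its contractile transcripts to 1932 CPM. It held 926 CPM of nkx1-1, 486 CPM of islet1 and 2325 CPM of the netrin receptor gene dcc, the highest dcc level of any cell. Its mitochondrial reads took 52.7% of all counted reads, the largest share of the 69. All results below are for the 69 cells, and the values without the 6 cells stand beside those that rest on them.

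**Figure D1:**
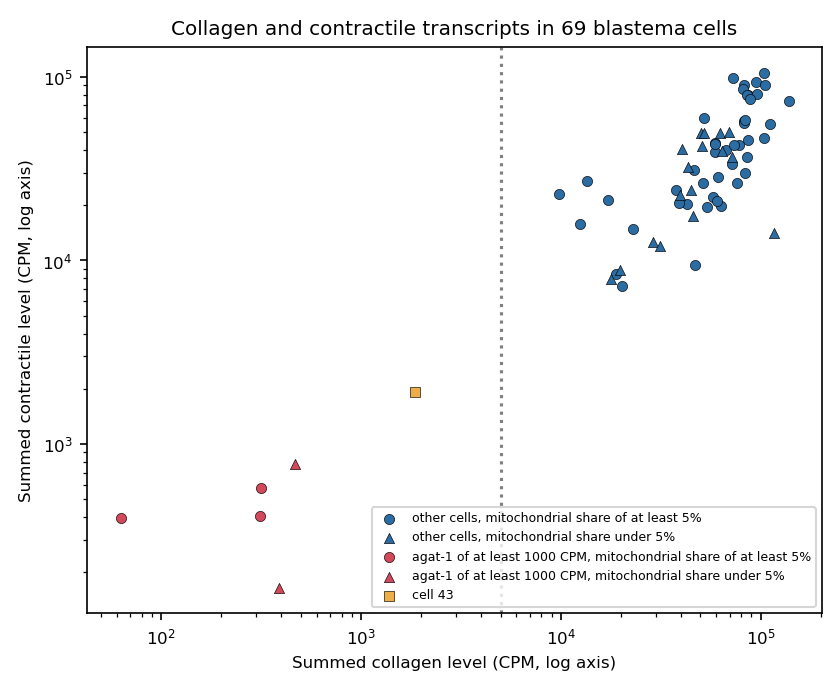
Summed CPM of 13 collagens (horizontal, log axis) against summed CPM of 12 contractile transcripts (vertical, log axis), 1 point per cell, triangles for libraries with a mitochondrial share under 5%, and a dotted line at 5000 CPM. The 5 agat-1-rich cells (red) and cell 43 (yellow) lie apart at the lower left, and the other 63 cells lie at 9857 CPM of collagen or more.

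The transcripts with the most reads were a mixture of contigs without a name and of muscle products. Contig dd_37 had the highest mean, 34182 CPM ± 20284 (SD over 69 cells), and ranged from 0 to 84508 CPM with a median of 30476. Contig dd_258 followed at 30123 CPM ± 13510, from 3262 to 75054 CPM. The most read transcript of a cell was dd_37 in 29 cells, dd_258 in 21, dd_753 in 11 and the myosin heavy chain gene MhcA dd_432 in 8. These 4 transcripts thus led every one of the 69 cells.

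MhcA dd_432 encodes the motor protein of the thick filament, and it came next with 19476 CPM ± 15832, from 3.76 to 60338 CPM. Among the 15 transcripts of highest mean CPM, 4 were collagens. COL2A1 dd_649 had a mean of 9232 CPM ± 6240, COL11A1 dd_402 of 6680 CPM ± 5154, COL1A2 dd_832 of 6369 CPM ± 4325 and COL24A1 dd_701 of 5826 CPM ± 4230. The remaining members of the 15 were the unnamed contigs dd_753, dd_344, dd_957, dd_505, dd_300, dd_292, dd_579 and dd_2544, with means from 16868 down to 5016 CPM. For 3 of these the mean differed by over 1.5 times between the kinds of library: dd_300 had a mean of 17071.7 CPM in the 19 libraries of low mitochondrial share and 3517 CPM in the other 50, dd_753 had 30516 and 11682 CPM, and dd_2544 had 8994 and 3504 CPM. Among the 15, the mean differed by over 1.5 times in the other direction for dd_37, with 23187 CPM in the 19 libraries and 38360 CPM in the 50. The same held for MhcA dd_432 (14153 and 21498 CPM) and COL24A1 dd_701 (4257 and 6422 CPM). The part of the libraries in these levels was not tested.

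Reads were spread over many transcripts. The 10 most read transcripts of a cell took 11.9% to 31.1% of its reads, with a median of 17.6%. The largest share belonged to cell 40, an agat-1-rich cell in which contig dd_146 alone took 55864 CPM.

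Few transcripts were read in every cell. Of 13695 transcripts with at least 20 summed reads, 39 had a read in all 69 thinned cells, 250 in at least 62 cells and 1701 in at least 35 cells, so the background share for a read in at least 35 of the 69 cells was 12.4%, or 9.08% over all 18740 transcripts with any read. Among named transcripts, the collagen COL2A1 dd_702 was read in all 69 (interval for the share 94.8% to 100%), from 32.996 to 11732 CPM with a median of 4572. The contig matched to a TNF receptor-associated factor, dd_1574, an adaptor of cytokine receptors, was also read in all 69, from 51.4 to 11102 CPM. MhcA dd_432, COL11A1 dd_402, the tubulin-matched contig TUBA3D dd_508 and the small GTPase gene RAB28 dd_375 each had a read in 67 cells. The myosin heavy chain gene MYH7 dd_249, the ankyrin gene ANK3 dd_1432 and the thyroid hormone receptor-1 contig dd_3012 followed with 66 cells each, and COL2A1 dd_649 with 65. ANK3 and thyroid hormone receptor-1 were read in all 6 low-collagen cells, whereas MhcA was read in 4 of them and COL2A1 dd_649 in 2.

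**Figure D2:**
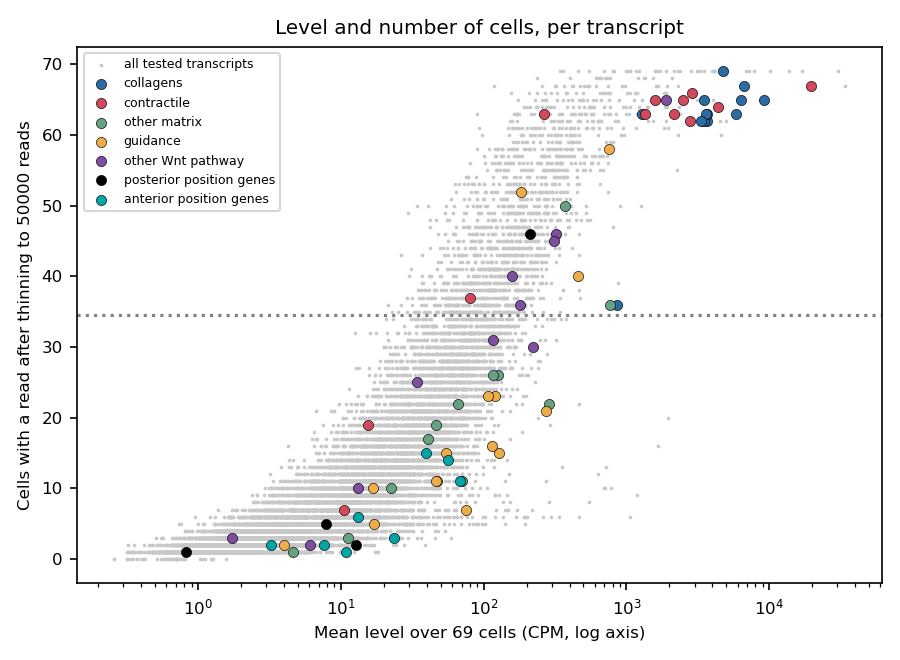
Mean CPM over 69 cells (horizontal, log axis) against the number of cells with a read after thinning (vertical), for 13695 transcripts in grey and the members of 7 gene lists in colour, with a dotted line between 34 and 35 cells. Collagen and contractile transcripts sit mostly at 62 cells or more, guidance and Wnt pathway genes spread over the whole range, and position genes lie mostly below 20 cells, with wnt11-2 at 46.

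Collagens form the triple-helical fibres and sheets of the matrix, and they were read in nearly every cell. All 13 listed collagens had a read in at least 35 cells (background 12.4%), and the median member was read in 63 cells at a mean of 3647 CPM, against 10 cells and 14.8 CPM for the median of all 13695 transcripts. The cells were chosen by a collagen in the screen, so these counts are a description. Summed over the 13, collagens took 58990 CPM in the median cell, with quartiles at 37913 and 82167 CPM. The median sum was 62146 CPM in the 50 libraries of higher mitochondrial share and 45091 CPM in the other 19. The coefficient of variation of the sum was 0.57 over the 69 cells and 0.46 over the 63 cells with collagen. The 3 COL4A6 contigs, which match a collagen of basement membranes, had means of 3612 CPM (dd_1579), 3315 CPM (dd_2337) and 1293 CPM (dd_2500).

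The exception was col21a1 dd_9565, a collagen that the study lists under nr4A control. It was read in 36 cells (52.2%, interval 39.8 to 64.4), with a median of 118.1 CPM and a highest value of 4152 CPM. Among the 40 cells with any read of it before thinning, its median was 1341 CPM. None of the 6 low-collagen cells held it after thinning.

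The contractile list held myosin, tropomyosin and other filament genes, and 10 of its 12 members had a read in at least 35 cells (83.3%, background 12.4%). The smooth-muscle type regulators calponin, CNN2 dd_333, and transgelin, TAGLN dd_635, were read in 63 cells each, and tropomyosin TPM1 dd_436 also in 63. Means were 2152 CPM for CNN2, 267 CPM for TAGLN and 1343 CPM for TPM1 dd_436. None of these 3 genes had a read in the thinned agat-1-rich cells or in cell 43. At the other end, the alpha-actinin contig ACTN2 dd_10174, a cross-linker of thin filaments, was read in 19 cells (27.5%, interval 17.5 to 39.6) and the titin contig TTN dd_3381 in 7 (10.1%, interval 4.18 to 19.8). Both had a median of 0 CPM, with highest values of 198 and 211.2 CPM.

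Summed over the list, contractile transcripts took 32465 CPM in the median cell, from 165 to 105321 CPM, and the coefficient of variation was 0.72, or 0.62 in the 63 cells. Its median was 35242 CPM in the 50 libraries of higher mitochondrial share and 24353 CPM in the other 19. The capping protein gene CAPZB dd_1165, which caps the ends of actin filaments, was the member least like the rest: it was read in 37 cells, and in all 6 cells that were low in collagen.

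Of the genes that handle calcium, the trigger of contraction, 5 of 9 were read in at least 35 cells (71.4% of the 7 with enough reads, background 12.4%). The calcium pump of the sarcoplasmic reticulum, ATP2A2 dd_1772, had a read in 63 cells with a mean of 2382 CPM ± 1704, and the plasma membrane pump ATP2B3 dd_1721 had one in 65 cells with 1280 CPM ± 837. Both contigs of the cGMP-dependent kinase PRKG1, dd_8296 and dd_9039, were read in fewer cells, 39 and 38, and the calcium channel CACNA1H dd_14730 in 13.

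**Figure D3:**
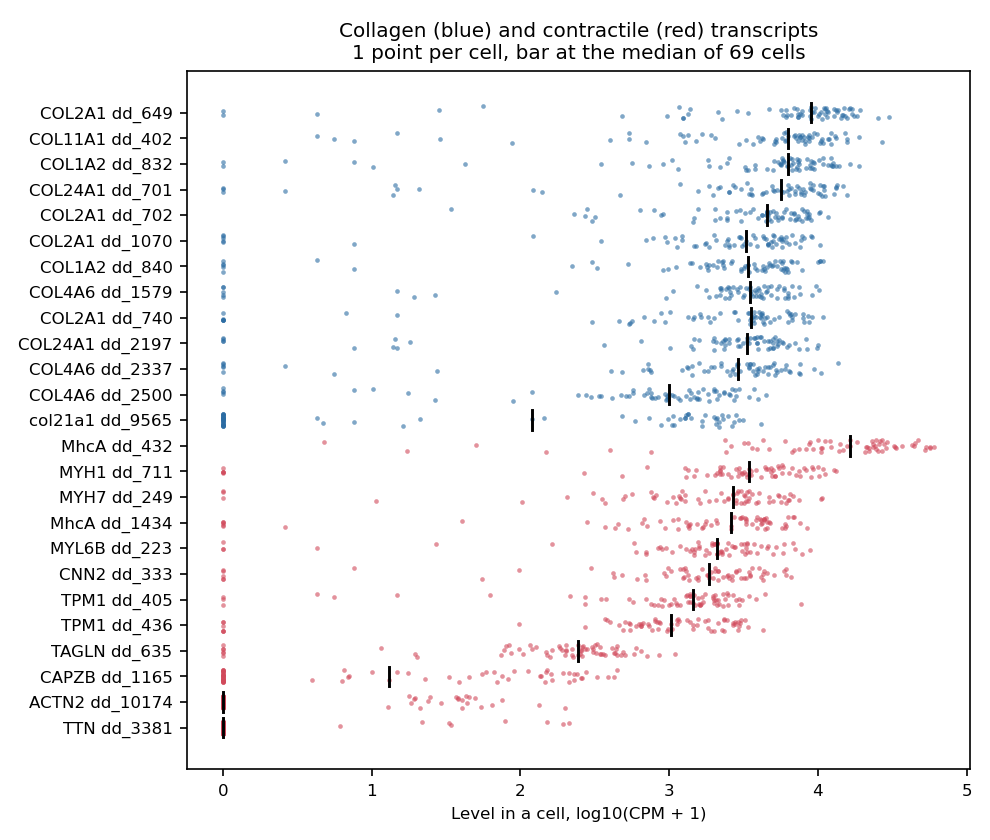
Level of each collagen (blue) and contractile transcript (red) in each of 69 cells as log10(CPM + 1), with a black bar at the median. Most members form a tight cloud with a short tail of low cells, whereas col21a1, CAPZB, ACTN2 and TTN have many cells at 0.

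Collagen, contractile and calcium genes were high in the same cells. The summed collagen and contractile CPM had a Spearman rho of 0.79 over 69 cells, 0.72 over the 63 cells with collagen and 0.83 over the 50 libraries of higher mitochondrial share. Calcium genes had a rho of 0.73 with the contractile sum and 0.71 with the collagen sum, or 0.64 and 0.62 in the 63 cells. With the reads of both lists taken out of the total, the rho of collagens with contractile transcripts was 0.82. The points are cells of 1 sample whose depths differ, and each sum is taken over the same total within a cell. The rho of the collagen sum with the number of reads was 0.36 and that of the contractile sum 0.22. In the 63 cells with collagen they were 0.44 and 0.27.

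The same held gene by gene. Over 78 pairs of collagens, rho ran from -0.10 to 0.91 with a median of 0.59, and the highest was COL11A1 dd_402 with COL2A1 dd_649. Over 45 pairs of contractile members read in at least 35 cells, it ran from -0.37 to 0.97, and the highest was the pair of MhcA contigs, which match the same gene and may share reads. Across the lists, 130 pairs of a collagen and a contractile member had a median of 0.53, with MhcA dd_432 and COL24A1 dd_701 highest at 0.84 and CAPZB dd_1165 with COL1A2 dd_840 lowest at -0.30. In the 63 cells these medians were 0.46, 0.58 and 0.39. For scale, the 1701 transcripts read in at least 35 cells had a median rho of 0.05 with the collagen sum, with quartiles at -0.08 and 0.21.

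Of transcripts outside the collagen list, the 8 closest to the collagen sum included 3 myosin heavy chain contigs, MhcA dd_432 (rho 0.78), MhcA dd_1434 (0.78) and MYH7 dd_249 (0.74), and the calcium pump ATP2A2 (0.72). The other 4 were the unnamed contigs dd_2373 (0.75), dd_14706 (0.74), dd_579 (0.74) and dd_655 (0.73). Closest to the contractile sum stood 4 collagens, COL24A1 dd_701 (0.84), COL2A1 dd_702 (0.79), COL2A1 dd_649 (0.76) and COL11A1 dd_402 (0.75). The unnamed contigs dd_2373 (0.81), dd_323 (0.78) and dd_373 (0.78), and RAB28 dd_375 (0.77) completed the 8. Contig dd_2373 was in both sets, was read in 50 cells and in none of the 6 low-collagen cells, and had a mean of 1255 CPM.

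Matrix genes other than collagens were read in fewer cells than the collagens, with the median member at 20.5 cells against 63. Of 14, ADAMTSL1 dd_8833 and the tenascin contig TNC dd_6736 were read in at least 35 cells (16.7% of the 12 with enough reads, background 12.4%). Little is read from that count. ADAMTSL1, a secreted relative of matrix proteases, was read in 50 cells with a median of 218 CPM. TNC, a large adhesion-modulating glycoprotein, was read in 36 cells with a median of 35.6 CPM and reached 10184 CPM in cell 4. Its mean was 1617 CPM in the 19 libraries of low mitochondrial share and 440 CPM in the other 50. The basement membrane gene FREM1 dd_5187 was read in 22 cells, the protease gene mmp19 dd_3902 in 22 and kallmann1 dd_13188, a secreted matrix gene, in 17. The perlecan contig HSPG2 dd_3527 was read in 1 cell, and TLL1 dd_1967 and HMCN1 dd_7545 had no read in any cell, which allows a summed level of up to 0.147 CPM. The summed level of this list followed that of collagens weakly, with a rho of 0.33 that was 0.15 in the 63 cells.

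Of the 9 genes of the secretory list, 2 were read in at least 35 cells (25% of the 8 with enough reads, background 12.4%). Little is read from that count. COLGALT2 dd_11681, a transferase that adds galactose to collagen, was read in 45 cells with a median of 148.5 CPM, and SERP2 dd_2491, a protein of the endoplasmic reticulum, in 36. The other 7 members of the secretory list lay under 35 cells, and LARP6 dd_1420, known in mammals to bind collagen messages, was read in 6.

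Of the 6 listed position genes of the tail, 1 was read in at least 35 cells (25% of the 4 with enough reads, background 12.4%). With so few members, nothing is read from that count. wnt11-2 dd_16209, a Wnt ligand gene of the planarian tail, was read in 46 cells (66.7%, interval 54.3 to 77.6), from 0 to 1288 CPM with a median of 100.7 CPM. Its reads were found in 44 of the 63 cells with collagen, in 32 of the 50 libraries of higher mitochondrial share and in 14 of the other 19. Apart from wnt11-2, the members of this list, among them wnt1, which the screen selected against, were read in few cells. wnt1 had 1, 2 and 1 reads in 3 cells (10, 48 and 75), at most 15.3 CPM, and none after thinning. pitx dd_15253 was read in 3 thinned cells with at most 23.01 CPM, islet2 dd_35379 in 5 with at most 217 CPM, and dd_20026 in 1. islet1 dd_8820 was read in 2 cells, cell 43 at 486 CPM and another at 394 CPM, and was at 0 in the other 67. Not every gene of the poles was on this list. The study also names kallmann1, dcc, nr4A and musculin among its new pole genes. In these cells kallmann1 dd_13188 was read in 17 cells, and dcc and nr4A, given below, in over 35 cells each. The gene musculin had no read in any cell.

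Genes known from the head end were present in some cells of these posterior blastemas. sfrp1 dd_13985, a secreted Wnt inhibitor of the head, was read in 15 cells (21.7%, interval 12.7 to 33.3) with up to 429 CPM. follistatin dd_9584, an activin inhibitor, was read in 14 cells with up to 627 CPM, and the Wnt receptor gene fz5/8-4 dd_11823 in 11 with up to 2032 CPM. notum dd_24180, a Wnt inhibitor of the anterior pole that is also known from wounds, was read in 6 cells with up to 583 CPM in cell 5. foxD dd_23249, a transcription factor of the anterior pole, was read in 1 cell, cell 32, at 744 CPM. None of the 10 listed genes reached 35 cells (0% of the 8 with enough reads, background 12.4%). With so few members, nothing is read from that count.

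Cell 64 stood out among them, a choice made after its values were seen. It held the highest level of fz5/8-4 (2032 CPM, next cell 1037), of ndl-4 dd_12674 (1599 CPM, next cell 26.2), of ndk dd_11285 (485 CPM, next cell 41.2), of ndl-5 dd_5102 (196 CPM, next cell 10.6) and of the T-box gene TBX1 dd_26182 (1661 CPM, next cell 283). ndk and the ndl genes are FGF receptor-like genes known from planarian heads. The cell had 193912 reads and 59290 CPM of collagen, near the median of the population, and 1 read each of zicA and vim. It had 97.98 CPM of nkx1-1 and no wnt11-2 read.

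wnt11-2 and the head genes did not exclude each other. wnt11-2 and sfrp1 were read together in 13 cells, where the product of the shares of cells with each, times the number of cells, gives 10, and wnt11-2 and fz5/8-4 in 6, where it gives 7.33. Among themselves, sfrp1 and follistatin met in 5 cells (product 3.04) and sfrp1 and fz5/8-4 in 3 (product 2.39). Differences of 1 to 3 cells from the product are small in counts of this size, and nothing is read from them.

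Of the other parts of the Wnt pathway, the frizzled-like contig frz-d dd_11650 was read in 65 cells (94.2%, interval 85.8 to 98.4), with 1901 CPM ± 1331.1. beta-catenin-1 dd_2688, the transcriptional arm of the pathway, was read in 46 cells, the kinase gene NLK-1 dd_4172 in 45, the Wnt secretion gene Evi/Wls dd_9546 in 40 and the inhibitor sfrp3 dd_11070 in 36. That made 5 of 12 listed genes at 35 cells or more (45.5% of the 11 with enough reads, background 12.4%). Vang-2 dd_11237, a planar polarity gene, followed at 31 cells and the receptor gene ror dd_7911 at 30. The level of beta-catenin-1 differed between the kinds of library, with a mean of 804 CPM in the 19 of low mitochondrial share and 134.7 CPM in the other 50.

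Among signals of other pathways, the Notch receptor contig NOTCH1 dd_10716 was read in 48 cells with a median of 191 CPM. The ligand contigs were rarer, JAG1 dd_11876 in 15 cells and DLL1 dd_13823 in 13. Of the BMP and activin genes, the shared mediator smad4 dd_1923 was read in 35 cells, the decoy receptor gene bambi dd_11062 in 22 and the BMP ligand contig dd_17402 in 8. In both lists a receptor or mediator was thus read in more cells than any listed ligand.

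Guidance genes, which steer axons and migrating cells, included 3 of 15 at 35 cells or more (20%, against a background of 12.4%), and little is read from that count. The Slit receptor contig ROBO2 dd_7921 was read in 58 cells (84.1%, interval 73.3 to 91.8), from 0 to 4192 CPM with a median of 486, and in none of the 6 low-collagen cells after thinning. The netrin receptor gene dcc dd_7195 was read in 52 cells with a median of 67.99 CPM, and the ubiquitin ligase contig TRIM9 dd_8386, known in other animals to act downstream of netrin receptors, in 40. The ligand genes were read in fewer cells, the netrin contig NTN1 dd_8504 in 15 cells and slit1 dd_12111 in 7. slit1 reached 1851 CPM in cell 24 and was at 0 in 61 of the 69 cells before thinning. No cadherin of 11 reached 35 cells (0% of the 10 with enough reads, background 12.4%), and PCDH11Y dd_9677 came nearest with 34. With so few members, nothing is read from that count.

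**Figure D4:**
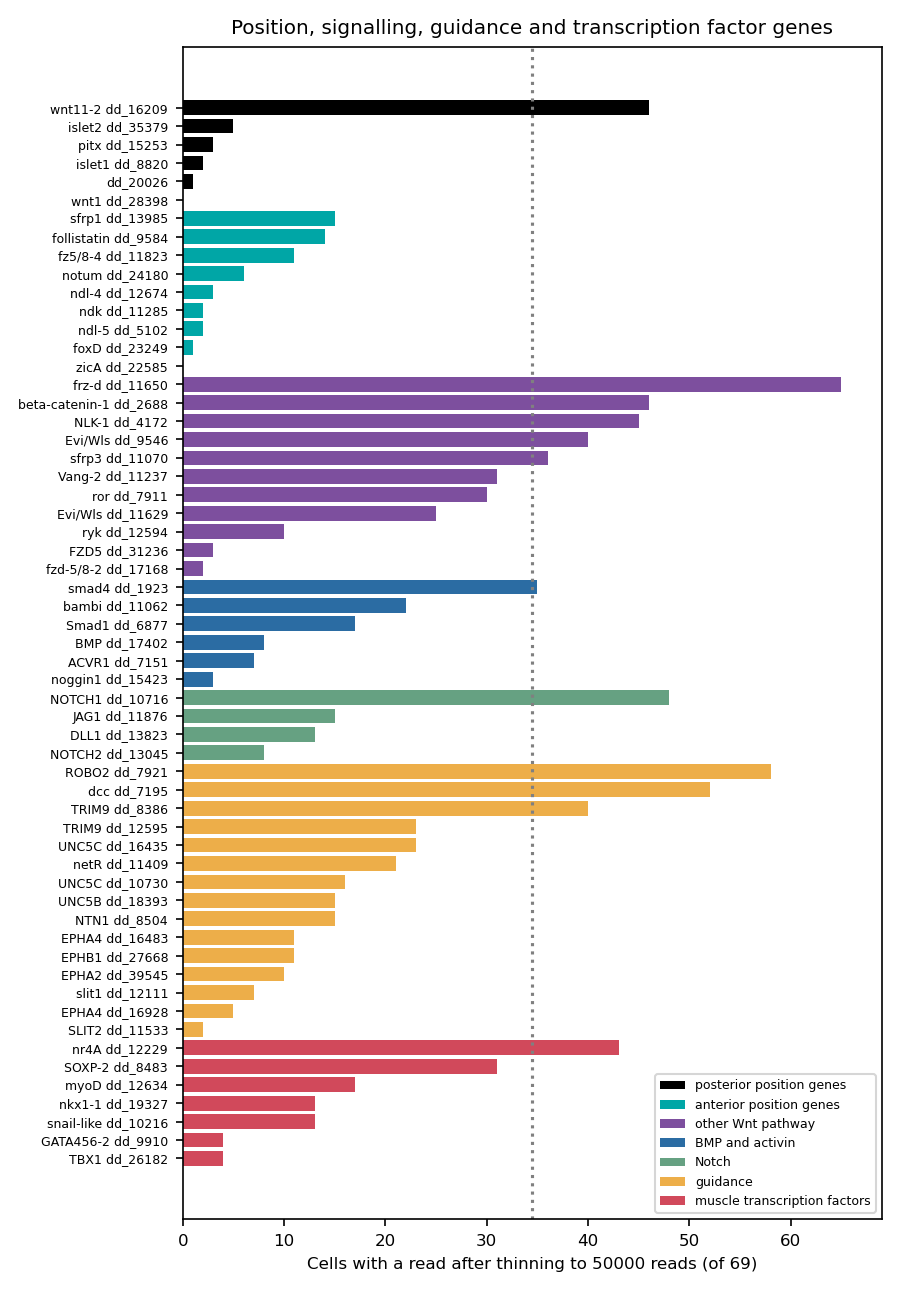
Number of the 69 cells with a read after thinning (bars) for position, signalling, guidance and transcription factor genes, coloured by list, with a dotted line between 34 and 35 cells. wnt11-2 is alone among the tail genes at 46 cells, frz-d leads all bars at 65, and ROBO2 follows at 58.

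The nuclear receptor gene nr4A dd_12229, whose inhibition the study examined, was read in 43 cells (62.3%, interval 49.8 to 73.7), from 0 to 1651 CPM with a median of 174 CPM. None of the 6 low-collagen cells held it. Of 10 genes the study lists under its control, 4 were read in at least 35 cells (50% of the 8 with enough reads, background 12.4%). The tubulin-matched contig TUBA3D dd_508, which the study lists by its number alone, was read in 67. The small heat shock gene hspb1 dd_2736 was read in 64, the RNA-binding protein gene qki dd_11601 in 48 and col21a1 in 36. psapl1 dd_1706 had no read, and ca12 dd_11683 was read in 7 cells. nr4A and wnt11-2 were read together in 33 cells (product 28.7), or 33 of the 63 cells with collagen (product 30.03), and nr4A and col21a1 in 26 (product 22.4), or 26 of the 63 (product 24.6). Both counts lay near their products.

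Transcription factors of muscle fibres were read in a minority of the cells. myoD dd_12634 was read in 17 cells (24.6%, interval 15.05 to 36.5), with up to 1294 CPM and a median of 560 CPM over the 18 cells with any read. The homeobox contig dd_19327, called nkx1-1 here, was read in 13 cells (18.8%, interval 10.4 to 30.1), with up to 2102 CPM and a median of 429 CPM over the 14 cells with any read. Its name comes from a best human match in the NK1 family, and whether it is the planarian gene known for circular fibres was not analysed here. No thinned cell held both, where the product of the shares gives 3.20. Before thinning 2 cells did: cell 8 had 120.5 CPM of myoD and 17.8 CPM of nkx1-1, and cell 10, the deepest cell, had 1 myoD read and 457 nkx1-1 reads. In another random draw of the thinning the count was 1, so a difference of about 3 cells from the product is small and nothing is read from it. snail-1, musculin and NKX2-4 had no read in any cell.

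UNC5C marked further cells. UNC5C dd_16435, a contig matched to the repulsive netrin receptor, was read in 23 cells, and none of them held myoD after thinning (product 5.67), with 1 before thinning. Of the 69 cells, 17 held myoD without the other pair, 10 held nkx1-1 alone, 20 held UNC5C alone, 3 held nkx1-1 with UNC5C and 19 held none of the 3. The 19 included 5 of the 6 low-collagen cells. In the 50 libraries of higher mitochondrial share the counts were 13, 7, 15, 3 and 12. UNC5C was noticed here after the counts of all pairs were seen.

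Pairs were then counted by rule. Of the genes in 13 lists of muscle, matrix, position and signalling genes, 58 had a read in 10 to 59 cells, which gave 1653 pairs. The number of cells with both, minus the product of the shares, ran from -8 to 10.8 cells over these pairs with a median of 1.04. The 15 pairs at each end were kept, and as the ends of many pairs they are descriptions of these cells.

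Around myoD stood a set of signalling and matrix genes. The Notch ligand contig JAG1 was read in 15 cells, and 13 of them held myoD (product 3.70, rho of the CPM 0.74). The netrin receptor contig netR dd_11409 met myoD in 14 cells (product 5.17) and the zinc finger gene snail-like dd_10216 in 12 of its 13 cells (product 3.20). TNC was read in all 17 myoD cells (product 8.87, rho 0.70), and col21a1 likewise in all 17 (product 8.87, rho 0.38). JAG1 and netR also met each other, in 13 cells (product 4.57). None of the 13 nkx1-1 cells held JAG1 (product 2.83) or snail-like (product 2.45), and 1 held netR (product 3.96). Before thinning nkx1-1 met JAG1 in 1 cell and netR in 3. These differences from the product are small in counts of this size, and nothing is read from them. In the 63 cells with collagen, the products for myoD with JAG1, netR, snail-like, TNC and col21a1 were 4.05, 5.40, 3.51, 9.71 and 9.71. The numbers of cells with both could only stay at 13, 14, 12, 17 and 17, since none of the 6 low-collagen cells held myoD after thinning. In the 50 libraries of higher mitochondrial share they were 10, 11, 8, 13 and 13, against products of 2.60, 3.90, 2.08, 7.02 and 6.50.

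col21a1 also had partners other than myoD. It met SOXP-2 dd_8483, an HMG-box transcription factor, in 27 cells (product 16.2, rho 0.61). In the nkx1-1 cells col21a1 was read in 11 of 13 (product 6.78), a small difference from which nothing is read. The protocadherin contig PCDH11Y dd_9677, like col21a1 a gene the study lists under nr4A control, met col21a1 in 27 cells too (product 17.7). FREM1 met netR in 15 cells (product 6.70) and the protease-like ADAMTSL3 dd_3852 in 16 (product 8.29). mmp19 and dd_2972, both on the nr4A list, were read together in 17 cells (product 7.97). The ephrin receptor contigs EPHB1 dd_27668 and EPHA2 dd_39545 met in all 10 cells of the rarer one (product 1.59, rho 0.85), a pair of related receptors that may share reads, as may the pair of PRKG1 contigs with 31 cells (product 21.5).

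At the other end stood pairs read together in fewer cells than the product, and thinning bears on several of these counts. Vang-2 was read in 31 cells and met myoD in 1 (product 7.64). It was read in 10 of the 13 nkx1-1 cells (product 5.84), a small difference from which nothing is read. Before thinning Vang-2 and myoD met in 4 cells. UNC5C dd_16435 met netR in 1 cell (product 7), or 5 before thinning, and JAG1 in 0 (product 5), also before thinning. TRIM9 dd_12595, another contig of the netrin-linked ligase, met col21a1 in 4 cells (product 12), or 7 before thinning, and UNC5C in 15 of its 23 (product 7.67). ror met SOXP-2 in 7 cells (product 13.5), or 12 before thinning, and col21a1 in 10 (product 15.7), or 15 before thinning. NTN1 and bambi never met, with 15 and 22 cells (product 4.78), also before thinning. In contrast, wnt11-2 ran across these sets: it was read in 11 of the 17 myoD cells (product 11.3) and in 11 of the 13 nkx1-1 cells (product 8.67).

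**Figure D5:**
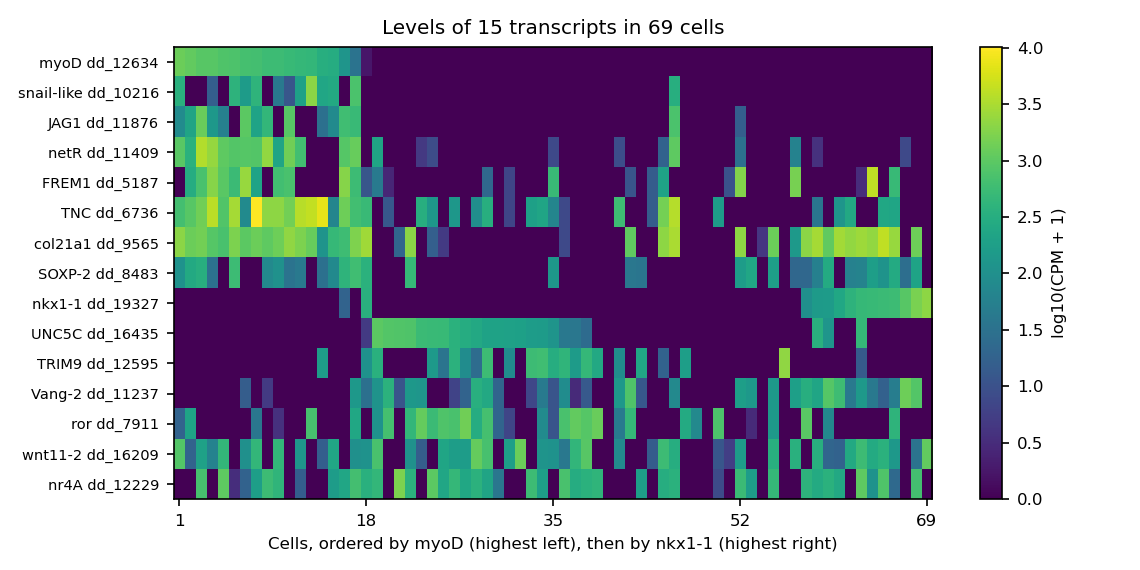
Levels of 15 transcripts (rows) in 69 cells (columns) as log10(CPM + 1). Cells are ordered by myoD from the left, then by nkx1-1 towards the right, and then by UNC5C. The ordering itself thus lines up the UNC5C cells. JAG1, netR and snail-like lie mostly in the columns of the myoD cells, with a read in 13, 14 and 12 of the 17 after thinning. UNC5C and TRIM9 lie mostly between the myoD and nkx1-1 cells, and wnt11-2 and nr4A run across the whole width.

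Some transcripts were read in very few cells at a high level. By the coefficient of variation among transcripts with a mean of at least 100 CPM and a read in at least 7 cells, the 8 most uneven were dd_17223 (6.03), dd_10393 (4.93), the protocadherin contig PCDH1 dd_13412 (4.91), dd_55 (4.76), dd_446 (4.68), dd_12472 (4.67), dd_1189 (4.65) and dd_146 (4.62). They were of 2 kinds. In dd_55, dd_446, dd_1189 and dd_146 the level came from the low-collagen cells, and in the 63 cells with collagen their means fell to 1.39, 1.16, 7.77 and 4.76 CPM. In the rest it came from cells with collagen: dd_17223 reached 5924 CPM in cell 37, which had the highest collagen sum, with 696 CPM in the next cell. PCDH1 reached 5051 CPM in cell 17 with 1081 CPM in the next, and dd_12472 reached 4756 CPM in the same cell 17.

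Most markers of other cell types were read in few cells. Of 11 cilia markers, 3 had no read in any cell, none was read in more than 4 thinned cells, and the summed level was 0 in 53 of 69 cells and 370 CPM at most, in cell 65, an agat-1-rich cell. Of 8 neural markers, 4 had no read, including GAD1, spp-13 and PCSK1, and the summed level ran from 0 to 1248 CPM with a median of 57.9 CPM. Most of it was prohormone convertase PC2 dd_1566, read in 39 cells with a median of 35.3 CPM, and the synaptic contig UNC13B dd_11981, read in 15. Of 10 markers of cell division, only the chromatin gene HMGB2 dd_1331 was read in at least 35 cells, in 61 with a median of 353 CPM, and VASA-2 dd_2082, an RNA helicase of planarian stem cells, was read in 21. PLK1, EXO1 and CDT1 were read in 6, 1 and 5 cells, of a population sorted as non-dividing. In all, 2 of 31 markers reached 35 cells, and 18 of the 31 had the 20 summed reads that the background of 12.4% is counted over, so their share was close to the background. PCDH9 dd_7930, a protocadherin contig that is no marker of the lists, was read in 5 thinned cells, all among the 6 low in collagen, with up to 1223 CPM in cell 23.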

How the data were processed

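Single cells were sequenced with Smart-seq2, which reads fragments along whole transcripts without molecular identifiers, so intervals cover counting error only. The deposited table holds whole-number read counts per contig of the Smed v4 planarian transcriptome; per the labels' processing notes the authors used CASAVA 1.7.0, Trimmomatic 0.32 and Bowtie. The handling of reads with several matches is not stated there. A second deposited table holds the authors' own comparisons between groups. Its values were not used, and only its list of contig names set which rows were analysed. In the kept cells these rows took 4.11% to 46.2% of all counted reads. The rest lay mainly on contigs dd_4 and dd_7 and a mitochondrial row.

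Counts were scaled to CPM per cell, and cells were thinned without replacement to 50000 reads with a fixed seed before cells with a read were counted. Shares have exact Clopper-Pearson intervals at 95%. Cells with under 5000 CPM of collagens and libraries with under 5% mitochondrial reads were set apart after their values were seen. The population is 1 sample without a replicate, so no test was run, and correlations are Spearman's rho across cells. Depth was 51801 to 1296478 reads per cell, and a count of 0 over all cells allows up to 0.147 CPM (3 reads).

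The text names the 15 transcripts of highest mean CPM, the 10 named transcripts read in most cells, the 8 of highest coefficient of variation (mean of at least 100 CPM, read in at least 7 cells), the 8 closest in rho to the collagen sum and the 8 closest to the contractile sum, and members of 19 gene lists. The values of 1 list member are not reported here. Cells, contigs or pairs chosen after their values were seen are named as such or stand among the extremes of all pairs. The members and lists were chosen with earlier results of these data known. Alternatives changed the total, the weighting of cells, the depth minimum, the thinning and the cells included. Scripts were tested on simulated data. Python 3.11.15, numpy 2.4.6, pandas 2.3.3, scipy 1.17.1 and matplotlib 3.10.9 were used.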

Additional observations from a re-analysis of the deposited data

Results flagged for a closer look

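Most reads of these cells lay outside the transcripts analysed. Summed over the 69 cells, contig dd_7 took 38.1% of all counted reads, contig dd_4 took 21.8% and the mitochondrial row took 16.4%. These rows were flagged because they hold signal that the report's values do not use, and no control sample was set beside them. Neither dd_4 nor dd_7 has a name in the annotation used.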

How the results depend on the processing

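Of 210 alternatives over 45 results, 191 stayed within 1 SD between cells of a level, or within 1.5 times of a count or other value, which is a wide margin for levels that vary much between cells. The other 19 went beyond it. Only the correlations could change sign, since the other values cannot be negative, and no correlation did. The number of transcripts read in every cell was 39, and it was 66 in the 52 cells of at least 100000 reads thinned to that depth, and 82 without the 6 low-collagen cells. The median share of reads in the 10 most read transcripts was 17.6%, and 5.11% with all counted reads as the total, which also lowered all 15 mean levels given, 9 of them by more than 1 SD. Without the 19 libraries of low mitochondrial share the mean of dd_300 was 3517 CPM. Without the 6 cells the mean of agat-1 fell from 704 to 2.68 CPM and the summed cilia markers from 19.3 to 5.24 CPM, and 6 of the 10 most widely read named transcripts remained. Cells with myoD and nkx1-1 numbered 0, and 2 without thinning and 1 in another draw. Cells with myoD and Vang-2 numbered 1, and 4 without thinning and 2 in another draw. The alternatives that left out cells by mitochondrial share, and those that changed the thinning of pairs, were chosen after seeing the data. No paired analysis was possible because the population is 1 group without a test, and its numbers only name cells. Genes at a few reads a cell can be missed at this depth, so a cell without a read may still express the gene.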

Other observations

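The 5 agat-1-rich cells shared several contigs without a name, a choice made after their values were seen. Contig dd_68 took 6307 to 30148 CPM in them and at most 205 CPM in the other 64 cells, dd_5958 took 5900 to 11918 CPM and at most 44.3 CPM, and dd_2178 took 6516 to 18391 CPM and at most 54.5 CPM. In the same cells the widely read contigs dd_258, dd_344 and dd_957 had medians of 31990, 18025 and 14627 CPM, against 27380, 12865 and 9315 CPM in the other 64.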
